A study of Mus musculus with 6 samples.

Results

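The genes described here are the 10 of the 38561 genes in the deposited tables that carry the main steps of intestinal iron absorption and storage. They are Cybrd1, Slc11a2, Slc40a1 and Heph (reduction, entry, exit and oxidation of iron), Tfrc (uptake of transferrin iron), Fth1 and Ftl1 (ferritin), and Epas1, Aco1 and Ireb2 (regulators). They were picked by gene symbol for their function, with earlier results of these data known, though no measured value entered the rule. Polyadenylated RNA of small intestinal mucosa was sequenced from 3 pools labelled Rbm47_IKO and 3 pools labelled wt, each joining, by the labels, RNA of 3 mice of both sexes. The labels give all mice as C57BL/6J, 8 to 12 weeks old, and name no treatment. The study's text allows somewhat more mice per pool and a higher upper age, and names the mucosa as jejunal. Rbm47 encodes an RNA-binding protein, and the comparison asks how its loss from the gut epithelium alters transcript levels. In the study's methods the knockout is constitutive, by a Cre transgene under the Vil1 (villin) promoter. The transgene is described there as acting mainly in the gut. The controls were Rbm47 fl/fl mice, so the pools labelled wt may carry the floxed allele as well. A pool gives 1 value for its mice, and the tests below take the pool as the unit, so the spread between single mice is not seen.

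Iron from the diet is reduced at the brush border by Cybrd1 (duodenal cytochrome b) and carried into the enterocyte by Slc11a2 (DMT1). It is then held in ferritin, a shell of heavy (Fth1) and light (Ftl1) chains, or leaves through ferroportin (Slc40a1) across the basolateral membrane, where hephaestin (Heph) oxidizes it for loading onto transferrin. The iron regulatory proteins IRP1 (Aco1, which works as cytosolic aconitase when it holds an iron-sulfur cluster) and IRP2 (Ireb2) bind hairpins called iron-responsive elements (IREs), blocking translation from a 5′ UTR and protecting the Tfrc mRNA from decay in its 3′ UTR, while HIF-2α (Epas1) drives transcription of absorption genes when iron or oxygen is low.

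These hairpins are shown because they place the members on either side of the IRP switch, the regulators Aco1 and Ireb2 on one and their mRNA targets on the other. An element was searched on the transcribed strand of annotated UTRs (GENCODE M21, GRCm38) as a C, any 5 bases, the loop CAGTGN and 5 bases that pair with the 5 before the loop, G-T pairs allowed. It was found in the 5′ UTR of Fth1 (chr19:9982732-9982760, plus strand), Ftl1 (chr7:45459779-45459807, minus strand) and Slc40a1 (chr1:45925465-45925493, minus strand), and 4 times in the 3′ UTR of Tfrc (chr16:32631219-32631247, chr16:32631598-32631626, chr16:32631663-32631691 and chr16:32631710-32631738, plus strand). Each is printed 5′ to 3′ in DNA letters with 6 flanking bases on either side, and capitals mark the loop.
Fth1 5′ UTR: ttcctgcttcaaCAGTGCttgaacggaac
Ftl1 5′ UTR: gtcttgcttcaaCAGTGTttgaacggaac
Slc40a1 5′ UTR: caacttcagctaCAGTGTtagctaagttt
Tfrc 3′ UTR, element 1: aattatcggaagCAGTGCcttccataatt
Tfrc 3′ UTR, element 2: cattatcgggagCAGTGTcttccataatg
Tfrc 3′ UTR, element 3: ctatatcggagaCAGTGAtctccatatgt
Tfrc 3′ UTR, element 4: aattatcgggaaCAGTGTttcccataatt

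Of all protein-coding genes, 31 of 20597 (0.151%) held such an element in a 5′ UTR and 129 of 20995 (0.614%) in a 3′ UTR. Tfrc was the only gene with 4 or more in a 3′ UTR, and of the 1295 genes whose longest 3′ UTR was within 10% of its 2461 bases, 18 (1.39%) held any. The letters without the pairing were common, in 12.2% of genes for the 5′ UTR and 35.9% for the 3′ UTR. The letters with an incomplete stem were also found in Slc11a2, Epas1, Heph, Fth1 and Ireb2 and at a further place in Tfrc. Those of Slc11a2 and Epas1 printed here are shown because elements have been described in the same UTRs of these genes. In Slc11a2 the stem paired at 4 of 5 positions (chr15:100395153-100395181, minus strand), in only some of its annotated 3′ UTRs, and the gene-level counts used here sum its isoforms. In Epas1 it paired at 3 of 5 (chr17:86753768-86753796, plus strand), in a 5′ UTR that begins before the gene's start in the deposited tables. In Heph too a 5′ UTR match paired at 3 of 5. Cybrd1, Heph, Aco1 and Ireb2 held no fully paired element in these windows. A match is a description of the letters, and binding was not measured.
Slc11a2 3′ UTR: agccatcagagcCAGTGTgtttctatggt
Epas1 5′ UTR: tacaatcctcggCAGTGTcctgagactgt

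Rbm47 itself (ENSMUSG00000070780, chromosome 5, 66016549 to 66173117) went against the labels. Its normalized CPM (counts scaled to library size) was 602.7, 624.6 and 619.8 in the pools labelled Rbm47_IKO and 459.8, 449.9 and 472.1 in wt. The difference in log2 was 0.42 (SE 0.10, edgeR adjusted p = 0.0751), so Rbm47 was not lower in any pool that should lack it. Which exon was deleted is not given in the sources used here, and the libraries are called the pools labelled Rbm47_IKO throughout, every direction resting on that label. Depth was 31560320 to 38951830 counts per pool, of which the 10 iron genes took 0.153 to 0.185%, with 63 to 32565 counts for any of them in any pool. Enterocyte markers were at a summed CPM of 49948 to 55496 in the pools labelled Rbm47_IKO and 50809 to 53258 in wt, and of the 10, 0 passed the edgeR threshold. Singly, 4 of 10 had an unadjusted p under 0.05 and DESeq2 called 3, above the 16.8 and 8.39% of all genes. Smooth muscle markers varied widely within both genotypes, from 360.9 to 3302 and from 90.7 to 2803, highest in Rbm47_IKO pool 3 and wt pool 2. Across 16221 genes, which are not replicates, Spearman's rho of the log2 fold change with transcript GC content was 0.271.

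Among the iron genes, Aco1 was the only one that changed past the threshold, and it was lower in the pools labelled Rbm47_IKO. All 10 passed the filter on low counts. With the edgeR adjusted p held at 0.05 or less, 1 of 10 was called lower and 0 higher, where 443 of 16425 genes tested (2.7%) were called, 1.45% higher and 1.25% lower. At an unadjusted p under 0.05 there were 4 of 10 (Aco1, Ireb2, Slc11a2 and Slc40a1), against 16.8% of all genes tested. DESeq2 called 2 of 10, Aco1 and Ireb2, and 8.39% of the genes to which it gave an adjusted p. Every pool of one genotype lay beyond every pool of the other for 5 of 10, against 23.3% of all genes, with 2 of them higher in the pools labelled Rbm47_IKO (Slc11a2 and Slc40a1; 11.7% of all genes) and 3 lower (Heph, Aco1 and Ireb2; 11.6% of all genes). The median log2 fold change was 0.17 over the 10, with 6 positive and 4 negative, and -0.0059 over all genes tested. It was 0.023 without wt pool 1, 0.051 without Rbm47_IKO pool 3, 0.25 without wt pool 2 and 0.043 with the summed smooth muscle level as a covariate. These are RNA levels of whole mucosa, in which fewer cells of a type and less RNA per cell cannot be told apart.

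**Figure D1:**
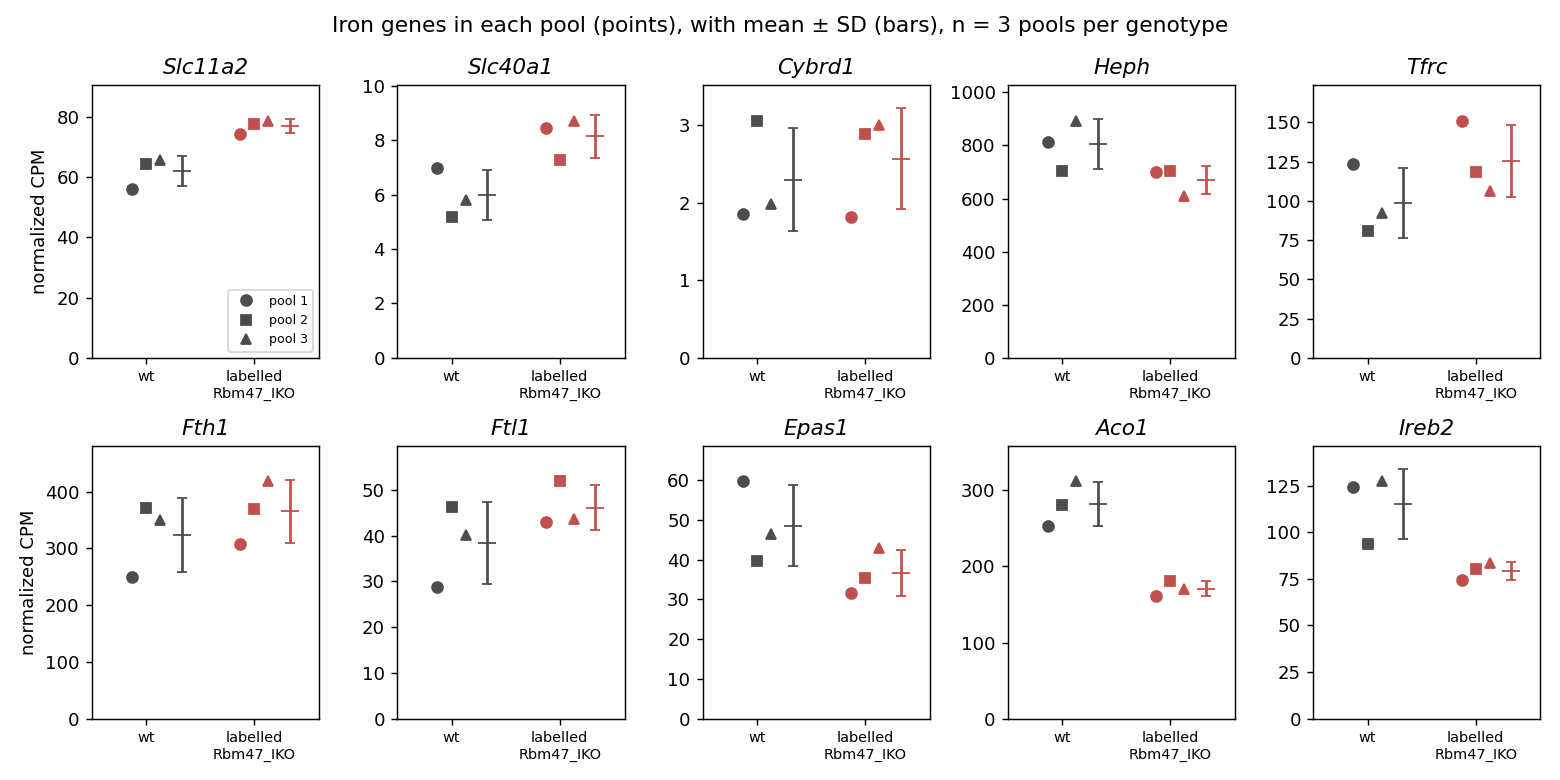
Normalized CPM of each iron gene (vertical axis, from 0) in the 3 wt pools (grey) and the 3 pools labelled Rbm47_IKO (red), with the pool number as the symbol and the mean with SD as the bar. The groups are apart for Slc11a2, Slc40a1, Heph, Aco1 and Ireb2, with a narrow gap for Heph, and they overlap for the other 5.

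At the step of iron entry, Cybrd1 (ENSMUSG00000027015, chromosome 2, 71117923 to 71142926), the brush border ferric reductase, had the lowest level per kilobase of the 10. Its normalized CPM was 1.82, 2.88 and 3.00 in the pools labelled Rbm47_IKO and 1.85, 3.06 and 1.98 in wt, from 63, 109 and 98 counts against 63, 116 and 72. The groups overlapped fully, with low and high pools in both. The log2 fold change was 0.16 (SE 0.32, 95% interval -0.57 to 0.90, edgeR adjusted p = 0.878), an interval that holds changes of either direction. It was 0.019 with the summed smooth muscle level as a covariate and 0.29 without the pool of each genotype highest in smooth muscle. With 1 pool left out it was 0.029 to 0.068 without wt pool 1, Rbm47_IKO pool 3, wt pool 3 or Rbm47_IKO pool 2, 0.35 without Rbm47_IKO pool 1 and 0.42 without wt pool 2.

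Slc11a2 (ENSMUSG00000023030, chromosome 15, 100387898 to 100425072, minus strand) encodes the proton-coupled ferrous iron importer. It was at a normalized CPM of 74.3, 77.7 and 78.7 in the pools labelled Rbm47_IKO and 56.1, 64.2 and 65.6 in wt. All 3 labelled pools were above all 3 wt pools, and they lay closer together, at 76.9 ± 2.30 (SD, n = 3) against 62.0 ± 5.09 (SD, n = 3). The fitted level was 1.24-fold higher, a log2 fold change of 0.31 (SE 0.10, 95% interval 0.078 to 0.55), which did not pass adjustment over all genes (edgeR adjusted p = 0.164). It stayed between 0.24 and 0.36 whichever pool was left out. The summed CPM of markers of distal small intestine and colon, where less iron is absorbed, was also higher in every pool labelled Rbm47_IKO, at 4627 to 5359 against 3608 to 4146. Of the 8 tested, 5 had positive and 3 negative log2 fold changes, 3 were higher in every labelled pool (11.7% of all genes), 0 passed by edgeR and DESeq2 called 2 (8.39% of all genes), and the colon marker Car1 was at 0 in every pool. The summed markers of proximal small intestine overlapped, at 8625 to 10124 against 9113 to 14149. Singly, 3 of those 9 were higher and 3 lower in every labelled pool, beside 11.7 and 11.6% of all genes, and their median log2 fold change of 0.17 was opposite in sign to the difference of the sums, -0.36. The part of either list in these values was not tested.

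At the step of iron exit, Slc40a1 (ENSMUSG00000025993, chromosome 1, 45908070 to 45925594, minus strand) encodes ferroportin, the known cellular iron exporter. The element printed above lies in an annotated 5′ UTR of this gene, and the gene-level counts sum its isoforms. Its normalized CPM was 8.46, 7.26 and 8.73 in the pools labelled Rbm47_IKO and 6.97, 5.16 and 5.82 in wt, from 196 to 293 counts. The lowest labelled pool (7.26) was just above the highest wt pool (6.97). At 1.36-fold, with a log2 fold change of 0.45 (SE 0.18, 95% interval 0.022 to 0.87), the difference missed the threshold (edgeR adjusted p = 0.274). Without the pools highest in smooth muscle it was 0.29. Macrophages also express Slc40a1, and their marker sum was 74.4 to 100.6 in the pools labelled Rbm47_IKO and 80.8 to 140.7 in wt, overlapping. Singly, 3 of these 9 markers had positive and 6 negative log2 fold changes. The part of macrophages in the Slc40a1 values was not tested.

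Heph (ENSMUSG00000031209, chromosome X, 96455359 to 96574485) encodes the membrane ferroxidase that works beside ferroportin. It stood at 698.1, 702.6 and 610.0 normalized CPM in the pools labelled Rbm47_IKO and at 813.7, 704.8 and 893.6 in wt. The labelled pools were all below the wt pools, but wt pool 2 (704.8) and Rbm47_IKO pool 2 (702.6) nearly met. At -0.26 in log2 fold change (SE 0.13, 95% interval -0.57 to 0.046, edgeR adjusted p = 0.379) it did not pass the test. The exporter and the ferroxidase thus had fold changes of opposite sign, neither past the threshold.

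For transferrin uptake, Tfrc (ENSMUSG00000022797, chromosome 16, 32608920 to 32632794) encodes transferrin receptor 1, which in the gut is known mainly from the basolateral side and from crypt cells. Its normalized CPM was 151.2, 118.7 and 106.3 in the pools labelled Rbm47_IKO and 123.8, 80.8 and 92.3 in wt. Pool 1 was the highest of each genotype, and wt pool 1 exceeded 2 of the labelled pools. The log2 fold change was 0.34 (SE 0.19, 95% interval -0.11 to 0.79, edgeR adjusted p = 0.444), and 0.54 after a correction for GC content, still not past the threshold (adjusted p = 0.174). It was 0.18 without Rbm47_IKO pool 1, 0.22 without wt pool 2 and 0.53 without wt pool 1. Crypt and cycling markers overlapped between genotypes, at a summed CPM of 193.4 to 268.3 against 193.7 to 328.1. Singly, 3 of the 10 had positive and 7 negative log2 fold changes, and 2 were lower in every labelled pool (11.6% of all genes). An unadjusted edgeR p under 0.05 was found for 2 (16.8% of all genes), and DESeq2 called 1 (8.39% of all genes). The part of these cells in the Tfrc values was not tested.

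Fth1 (ENSMUSG00000024661, chromosome 19, 9982703 to 9985092), the ferritin heavy chain with ferroxidase activity, was at 307.3, 369.5 and 418.2 normalized CPM in the pools labelled Rbm47_IKO and at 249.5, 370.3 and 350.7 in wt. Pool 1 was the lowest of each genotype, the reverse of Tfrc, and pool 2 was the same in both to within 1 CPM. Its log2 fold change was 0.17 (SE 0.18, 95% interval -0.25 to 0.60, edgeR adjusted p = 0.733), and 0.066 with smooth muscle as a covariate. It was 0.017 without wt pool 1, 0.067 without Rbm47_IKO pool 3 and 0.28 without Rbm47_IKO pool 1 or wt pool 2.

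Ftl1 (ENSMUSG00000050708, chromosome 7, 45457944 to 45459884, minus strand), the light chain that aids mineral formation, had a normalized CPM of 42.9, 51.9 and 43.6 in the pools labelled Rbm47_IKO and 28.7, 46.3 and 40.2 in wt. Only wt pool 2 lay inside the labelled range. The difference in log2 was 0.26 (SE 0.18, 95% interval -0.16 to 0.68, edgeR adjusted p = 0.541). It was 0.14 after the GC correction, 0.45 without the pools highest in smooth muscle, 0.093 without wt pool 1, 0.17 without Rbm47_IKO pool 2 and 0.42 without wt pool 2. Both ferritin genes have near-identical copies elsewhere in the genome. The 3 other light chain genes in the tables held at most 0.0702% of that family's counts in any pool, and the 10 other heavy chain genes 0.0805 to 0.376%, but how reads matching several copies were counted is not given in the sources used here, so ferritin levels are uncertain.

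Ratios within a pool do not depend on scaling between pools. The log2 ratio of Tfrc to Fth1 per kilobase was -3.86, -4.47 and -4.81 in the pools labelled Rbm47_IKO and -3.85, -5.03 and -4.76 in wt. As described above, the IRPs act on Tfrc through mRNA decay and on Fth1 through translation. RNA counts do not measure translation, so this ratio is not a reading of IRP activity. Pool 1 had the highest ratio in both genotypes, and the genotypes differed by 0.17 (exact permutation test, two-sided, p = 0.8), less than the SDs of 0.48 and 0.62 between pools. Pool 1 was also the lowest in smooth muscle markers in both, at 360.9 and 90.7, and the part of this in the ratio was not tested. Of 6 such ratios none passed, the lowest p being 0.3 for Aco1 to Ireb2 (difference -0.20, 0.72 adjusted over the 6), where 3 pools against 3 cannot give a p below 0.1. Slc40a1 to Slc11a2 differed by 0.14, Slc40a1 to Fth1 by 0.27, Cybrd1 to Slc11a2 by -0.15 and Fth1 to Ftl1 by -0.10 (exact p of 0.4 to 0.6). All 6 differences moved by over 1.5 times with 1 pool left out, wt pools 1 and 2 giving the ends of the range for Slc40a1 to Fth1 (0.56 and 0.060), Slc40a1 to Slc11a2 (0.32 and 0.0097) and Aco1 to Ireb2 (-0.33 and -0.056).

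Among the regulators, Aco1 (ENSMUSG00000028405, chromosome 4, 40143081 to 40198338), encoding IRP1, was at 161.1, 180.6 and 169.9 normalized CPM in the pools labelled Rbm47_IKO and at 253.1, 281.3 and 312.0 in wt. Every labelled pool was below the lowest wt pool, and the means were 170.5 ± 9.75 (SD, n = 3) and 282.1 ± 29.5 (SD, n = 3). Aco1 fell by 0.73 on the log2 scale (SE 0.12, 95% interval -1.0 to -0.45, edgeR adjusted p = 0.0256), a level 1.65-fold higher in wt. Its log2 fold change lay between -0.80 and -0.64 in every fit. It was -0.74 with smooth muscle as a covariate (adjusted p = 0.0173) and -0.78 after the GC correction (adjusted p = 0.0367). These fits reuse the same pools, and as the groups are apart, leaving out 1 pool could hardly reverse the sign. The call was lost without any 1 of Rbm47_IKO pool 1 (adjusted p = 0.145), pool 2 (0.142) and pool 3 (0.0910) or wt pool 3 (0.0739), and without the pools highest in smooth muscle (0.0709). The summed distal markers described with Slc11a2 separated the same pools, though only 3 of the 8 tested did so singly, and their part in Aco1 was not tested.

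Ireb2 (ENSMUSG00000032293, chromosome 9, 54863755 to 54912534), encoding IRP2, had a difference of the same sign. Normalized CPM was 74.1, 80.2 and 83.6 in the pools labelled Rbm47_IKO and 124.2, 93.7 and 127.3 in wt. The labelled pools were all below wt, with wt pool 2 nearest to them. The log2 fold change was -0.54 (SE 0.14, 95% interval -0.86 to -0.22), 1.45-fold higher in wt, and did not pass the threshold (edgeR adjusted p = 0.0944). It passed with DESeq2 (-0.54, adjusted p = 0.0140), without wt pool 2 (-0.66, adjusted p = 0.0328) and without the pools highest in smooth muscle (-0.71, adjusted p = 0.0497), while the GC correction left -0.33 (adjusted p = 0.242). At 39.0% GC, its transcript was the lowest in GC of the 10.

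Epas1 (ENSMUSG00000024140, chromosome 17, 86753907 to 86833410) encodes HIF-2α, which is also abundant in endothelium. It was at 31.5, 35.4 and 43.1 normalized CPM in the pools labelled Rbm47_IKO and 59.7, 39.6 and 46.5 in wt. Rbm47_IKO pool 3 exceeded wt pool 2, so the groups overlapped. A log2 fold change of -0.41 (SE 0.18, 95% interval -0.83 to 0.014) did not pass (edgeR adjusted p = 0.313). It was -0.67 without the pools highest in smooth muscle (adjusted p = 0.0856) and -0.23 without wt pool 1. Fibroblast and endothelial markers overlapped, at a summed CPM of 155.5 to 361.3 against 105.9 to 445.6. Singly, 4 of these 10 markers had positive and 6 negative log2 fold changes. The part of these cells in the Epas1 values was not tested.

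**Figure D2:**
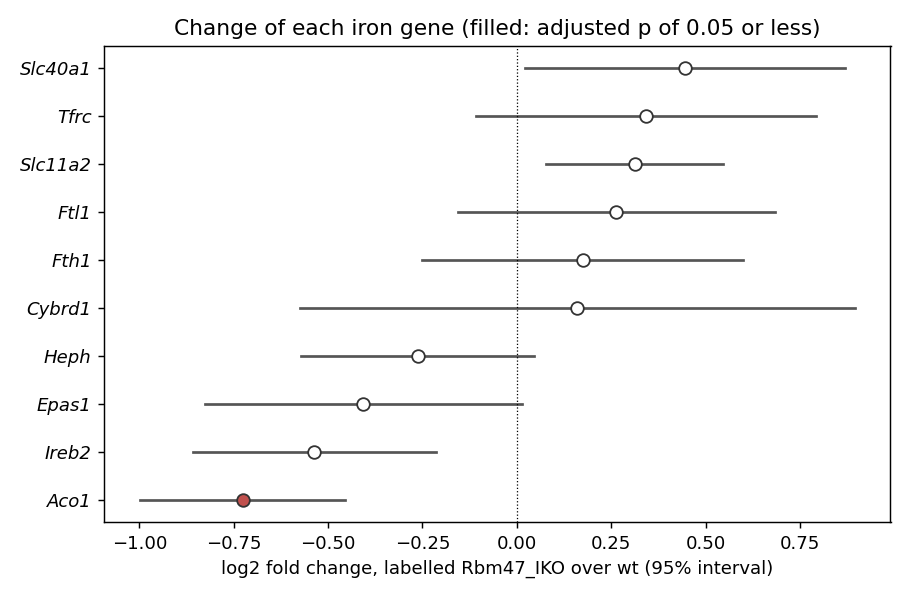
Log2 fold change of each iron gene, pools labelled Rbm47_IKO over wt (horizontal axis), with its 95% interval from the edgeR fit as the line; a filled point has an adjusted p of 0.05 or less. Aco1 (-0.73) is the only filled point, the intervals of Ireb2, Slc11a2 and Slc40a1 lie on one side of 0, and the other 6 cross it.

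Levels per kilobase of gene length spanned from Cybrd1 to Fth1. In wt the mean CPM per kilobase was 373.6 ± 74.9 (SD, n = 3) for Fth1, 104.9 ± 12.4 for Heph and 62.7 ± 6.55 for Aco1, which stood apart from each other in every pool. Ftl1 (28.7), Ireb2 (19.8) and Tfrc (16.0) followed, and neighbours in that order overlapped between pools. Slc11a2 (9.75) and Epas1 (9.15) also overlapped, above Slc40a1 (1.77) and Cybrd1 (0.430). In the pools labelled Rbm47_IKO, Aco1 at 37.9 overlapped Ftl1 at 34.4, Tfrc at 20.3 was above Ireb2 at 13.7 in every pool, and Slc11a2 at 12.1 was clear of Epas1 at 6.91. By the share of genes tested with a lower level per kilobase, Fth1 stood at 99.3%, Heph at 97.0%, Slc11a2 at 75.8% and Slc40a1 at 43.5%.

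**Figure D3:**
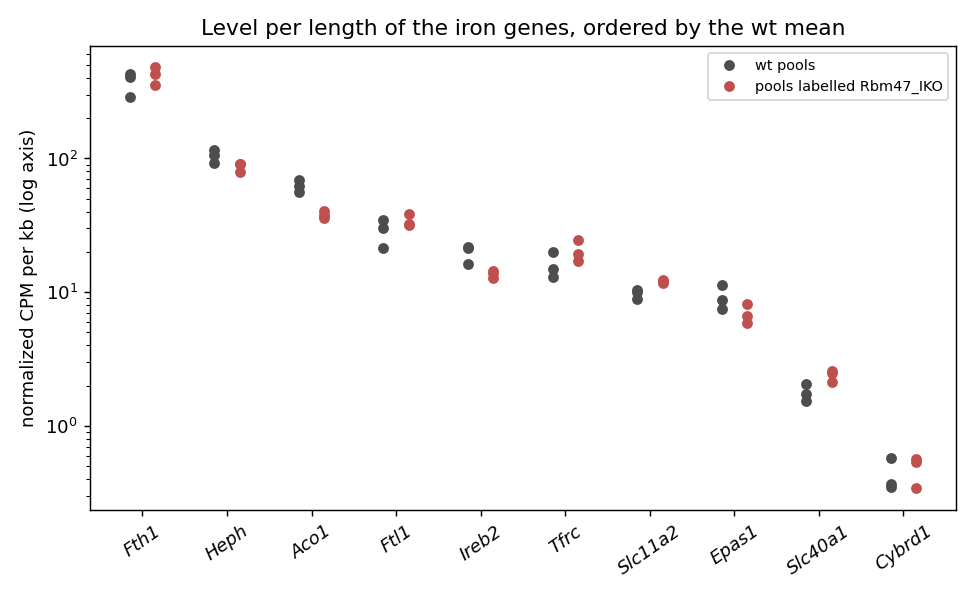
Normalized CPM per kilobase (vertical log axis) of the 10 iron genes in each wt pool (grey) and each pool labelled Rbm47_IKO (red), ordered by the wt mean. Fth1 is the highest and Cybrd1 the lowest in both genotypes, and Aco1 drops next to Ftl1 in the labelled pools.

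The iron genes varied less between pools labelled Rbm47_IKO than between wt pools. The coefficient of variation was lower in the labelled pools for 10 of 10 genes, against 66.5% of all genes tested, with a range of 2.99 to 25.3% (median 10.2%) in those pools and 8.21 to 28.9% (median 18.1%) in wt. For all genes tested the medians were 13.2 and 18.0%. The difference was not tested, and Cybrd1 varied most in both genotypes while Slc11a2 varied least.

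The other genes of iron and oxygen handling were read from 5 lists of 85 genes, of which 79 passed the filter. By the same edgeR threshold, 1 of 79 rose and 2 fell, beside 1.45 and 1.25% of all genes, and the median log2 fold change was 0.040. Those past the threshold were Abcb6 and Cpox of the heme list and Ciao1, which helps deliver iron-sulfur clusters to cytosolic proteins. Each of these calls was lost with any 1 pool left out, and some genes that did not pass had larger log2 fold changes.

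Of the 18 genes of heme uptake, synthesis and breakdown, 1 rose, 1 fell and 16 did not pass, with a median log2 fold change of 0.17. Over all genes 1.45% were called higher and 1.25% lower. DESeq2 called 5 of 18, beside 8.39% of all genes, and 8 had an unadjusted edgeR p under 0.05, beside 16.8%. All labelled pools were above all wt pools for 5 of 18 and below for 3, where 11.7 and 11.6% of all genes were. Cpox, the coproporphyrinogen oxidase of heme synthesis, was at 18.1, 16.8 and 14.5 normalized CPM in the pools labelled Rbm47_IKO and 25.0, 31.8 and 26.3 in wt, and fell by 0.75 on the log2 scale (SE 0.14, edgeR adjusted p = 0.0393). Abcb6, a porphyrin transporter, was at 35.7, 38.3 and 34.9 against 22.6, 25.1 and 27.1 and rose by 0.54 (SE 0.11, edgeR adjusted p = 0.0480). Neither pair of groups overlapped. With any 1 pool left out, both calls were lost (adjusted p of 0.0520 to 0.212 for Cpox and 0.0767 to 0.270 for Abcb6), as they were after the GC correction (0.0602 and 0.109) and without the pools highest in smooth muscle (0.0907 and 0.110). The Abcb6 call was also lost with RLE size factors (0.0648), no filter (0.0609) and limma-voom (0.0545). The log2 fold changes themselves ran from -0.82 to -0.64 for Cpox and from 0.48 to 0.61 for Abcb6 with a pool left out, were -0.73 and 0.47 after the GC correction and -0.57 and 0.56 without the pools highest in smooth muscle. Slc46a1, the proton-coupled folate transporter that also takes up heme, was at 36.9, 38.2 and 44.8 against 65.7, 102.9 and 212.1. All labelled pools were below wt, but the wt pools themselves spread over 65.7 to 212.1, and the log2 fold change of -1.67 (SE 0.39) had an edgeR adjusted p of 0.0708. It was -1.07 without wt pool 3 (adjusted p = 0.0929), and it passed without wt pool 1 (-1.98, adjusted p = 0.0283), with DESeq2 (0.0198), with no filter (0.0327) and with the smooth muscle covariate (0.0295). Flvcr2, a transporter related to the heme exporter Flvcr1, was at 21.0, 23.6 and 16.8 against 7.56, 14.6 and 6.64, with a log2 fold change of 1.09 (SE 0.30, edgeR adjusted p = 0.114). Blvrb, biliverdin reductase B, was at 15.9, 20.1 and 16.7 against 8.91, 13.7 and 10.2, with a log2 fold change of 0.68 (SE 0.19, edgeR adjusted p = 0.113). Both were higher in every labelled pool, with wt pool 2 the nearest, and both were called by DESeq2 and without wt pool 2. Flvcr2 was also called with the smooth muscle covariate and without the pools highest in smooth muscle.

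For cytosolic and mitochondrial iron handling, of 19 genes tested of 20 listed, 1 fell and 18 did not pass, beside 1.25% of all genes called lower. The list's median log2 fold change was -0.035. Ciao1 was at 15.3, 15.9 and 16.0 normalized CPM in the pools labelled Rbm47_IKO and 23.9, 24.0 and 22.1 in wt, apart in every pool, and fell by 0.57 on the log2 scale (SE 0.11, edgeR adjusted p = 0.0393). Leaving out any 1 pool ended this call too, with adjusted p of 0.0651 to 0.219, and so did the GC correction (0.0792), no filter (0.0610) and leaving out the pools highest in smooth muscle (0.0931). Its log2 fold change stayed at -0.60 to -0.54 with a pool left out, and was -0.49 after the GC correction and -0.56 with no filter or without those pools.

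For transferrin, hepcidin and other iron transport, of 13 genes tested of 18 listed, 0 passed by edgeR and 0 by DESeq2, and 1 (Cp, ceruloplasmin) had an unadjusted edgeR p under 0.05, beside 16.8% of all genes. The median log2 fold change was 0.087. Cp had a log2 fold change of -0.86 (SE 0.35, edgeR adjusted p = 0.276) with groups that overlapped, and it was called with the smooth muscle covariate. Slc39a14 (ZIP14, a transporter of non-transferrin iron and manganese) had the highest mean CPM of the list, 192 in the pools labelled Rbm47_IKO and 181 in wt. Its levels differed by 0.087 in log2 (edgeR adjusted p = 0.867). Slc39a8 (ZIP8), its close relative, followed at a mean of 9.65 and 9.57 CPM, and differed by 0.012 (edgeR adjusted p = 0.988). Hamp, Hamp2, Tfr2, Hjv and Lcn2 did not pass the filter on low counts.

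Of the 14 genes of iron and oxygen sensing, 0 passed by edgeR, 5 had an unadjusted p under 0.05 (16.8% of all genes) and DESeq2 called 2 (Fbxl5 and Usp33; 8.39% of all genes), with a median log2 fold change of 0.026. Fbxl5, the iron-sensing subunit of the ligase that marks IRP2 for degradation, was at 163.8, 169.2 and 164.8 normalized CPM in the pools labelled Rbm47_IKO and 262.2, 186.4 and 262.4 in wt. As with Ireb2, the labelled pools were all below and wt pool 2 was the nearest to them, and the log2 fold change of -0.51 (SE 0.15) had an edgeR adjusted p of 0.123. Egln3, a prolyl hydroxylase that tags HIF and is itself a HIF target, was at 273.7, 281.5 and 192.5 against 33.1, 144.0 and 135.6. The groups were apart, with wt pool 1 far below the rest, and the log2 fold change of 1.26 (SE 0.48) had an edgeR adjusted p of 0.245. The 2 genes of highest mean CPM in the list had log2 fold changes of -0.19 (Ndfip2, edgeR adjusted p = 0.534) and -0.28 (Marchf8, edgeR adjusted p = 0.293).

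Of the 15 hypoxia-inducible targets, 0 passed by edgeR, 4 had an unadjusted p under 0.05 (16.8% of all genes) and DESeq2 called 1 (Ero1a; 8.39% of all genes). The median log2 fold change was 0.15, with 10 positive and 5 negative. All labelled pools were above all wt pools for 4 of 15 and below for 1, beside 11.7 and 11.6% of all genes. Ldha and Pfkfb4, both of glycolysis and highest in mean CPM here, had log2 fold changes of 0.30 (edgeR adjusted p = 0.563) and 0.12 (edgeR adjusted p = 0.809).

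**Figure D4:**
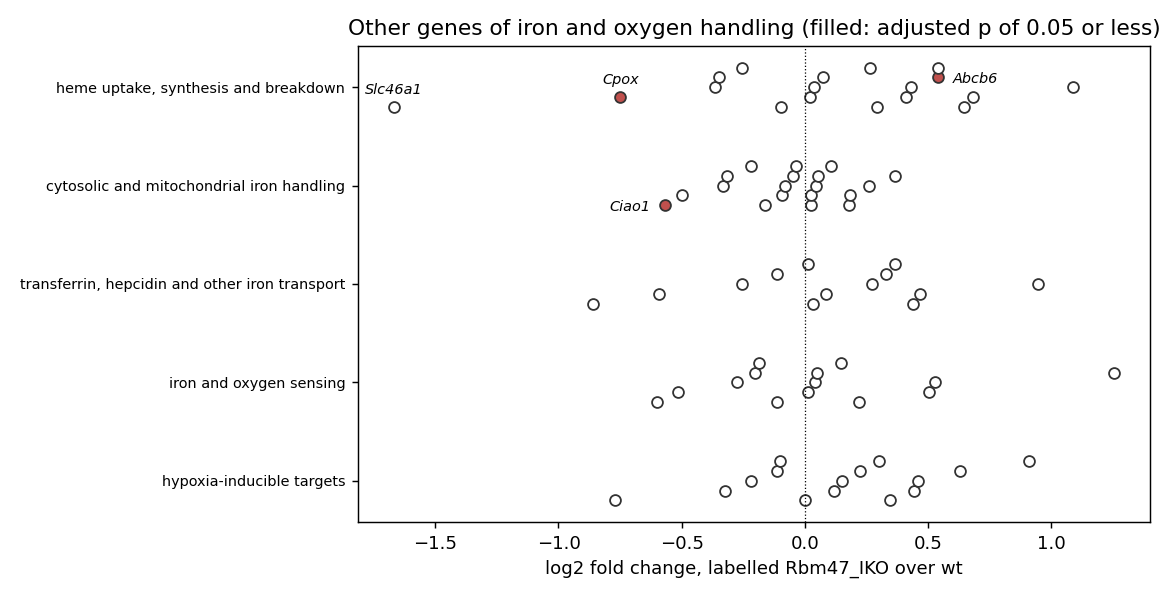
Log2 fold change, pools labelled Rbm47_IKO over wt (horizontal axis), of the 79 other genes tested, by list (vertical axis); filled points passed the edgeR threshold (adjusted p at most 0.05). They are Cpox (-0.75), Abcb6 (0.54) and Ciao1 (-0.57), and Slc46a1 (-1.67) lies farthest to the left without passing.

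Red cells carry much of the body's iron machinery, and their markers were few in these pools, at a summed CPM of 6.79 to 16.5 in the pools labelled Rbm47_IKO and 6.06 to 8.91 in wt. B and plasma cell markers were at a summed CPM of 394.0 to 486.1 against 374.9 to 394.3. Of that list 1 of 8 rose, beside 1.45% of all genes. It was Sdc1 (log2 fold change 1.21, edgeR adjusted p = 0.0119), which epithelium expresses as well. The other 7 had negative log2 fold changes, none past the threshold, and the list's median was -0.60, opposite in sign to its sum. Of the other 8 marker lists 0 genes passed by edgeR, and at an unadjusted p under 0.05 the count ran from 0 for smooth muscle and for fibroblast and endothelium to 6 of 9 for proximal small intestine, where DESeq2 called 3, beside 16.8 and 8.39% of all genes.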

How the data were processed

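Mucosal RNA of 6 pools, 3 per genotype label, was analysed. The authors deposited, for each pool, the count of reads on 38561 Ensembl genes without normalization. The CPM column that the authors deposited is the count scaled to a fixed library total, and the RPKM column that the authors deposited divides that CPM by gene length in kilobases. Recomputing both columns from counts gave the same values to within 4.91e-11. RPKM entered only as an alternative for the ratios. The submitters' processing notes name STAR 2.5.1a, Subread featureCounts 1.4.6-p5 and GRCm38. The counting settings for strand and for reads matching several places are not given in the sources used here. Symbols and UTRs came from GENCODE M21, in which 36723 of the genes were found.

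Counts of the 16425 genes past filterByExpr of edgeR 4.0.16 (R 4.3.3) were scaled by TMM and tested over all genes with the quasi-likelihood test, two-sided, and Benjamini-Hochberg adjustment, with calls at an adjusted p of at most 0.05. Normalized CPM uses the TMM library sizes. Ratios and marker sums were compared by exact permutation of the pools, which with 3 against 3 cannot give a p below 0.1. Each pool held 31560320 to 38951830 counts, and Cybrd1 had the fewest counts of the iron genes. How far depth limits the precision was not tested. The test was checked on simulated data, where small changes were nearly all missed and most 2-fold changes were missed as well. False calls there were more frequent than the threshold sets. A gene not past the threshold is therefore not shown to be unchanged.

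The iron genes, the lists of other genes and the alternatives were chosen with earlier results of these data known. The alternatives were DESeq2 1.42.0, RLE size factors, library size alone, no filter, a filter of 1 CPM in 3 pools, limma-voom (limma 3.58.1), the pool number as a block, the smooth muscle sum as a covariate, an offset by GC content (lowess span 0.3) and leaving out each pool. Leaving out the pool of each genotype highest in smooth muscle was added after the data were seen. The genes named were Rbm47, the 10 iron genes and, of each list, those past the threshold or otherwise the 2 with the highest mean CPM. Hamp, Hamp2, Tfr2, Hjv, Lcn2 and Car1 were named for their low counts, and Flvcr1 as a relative of Flvcr2. Slc46a1, Fbxl5, Egln3, Flvcr2, Blvrb, Sdc1, Cp, Usp33 and Ero1a were chosen after their values were seen. Of the 9 marker lists, the summed level is given. No libraries held identical values, and all 6 were used.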

Additional observations from a re-analysis of the deposited data

How the results depend on the processing

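No iron gene's log2 fold change changed sign under any alternative or with any 1 pool left out. For the 5 whose groups do not overlap, leaving out a pool could hardly reverse the sign. The pool numbers did not pair the samples (correlations of same-numbered deviations 0.41, -0.0026 and -0.28). With the pool number as a block 100 genes, 0 iron genes and 0 genes of the other lists were called, and Aco1 was at -0.72 (adjusted p = 0.0780). Against 443 genes called as reported, DESeq2 called 1243, the smooth muscle covariate 711 and the GC offset 270. Leaving out 1 pool gave 0 to 431 genes, 0 without Rbm47_IKO pool 2, where 1729 genes had an unadjusted edgeR p under 0.05. The count was 32 without Rbm47_IKO pool 1, 119 without pool 3 and 11 without wt pool 3.

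Iron genes called were 1 as reported, 2 with DESeq2 and 0 to 2 with a pool left out (2 without wt pool 2, Aco1 and Ireb2). Without the pools highest in smooth muscle 1 was called, Ireb2. For Aco1 the log2 fold change was -0.80 to -0.64 with a pool left out and -0.73 without the pools highest in smooth muscle. For Ireb2 it was -0.66 to -0.45 with a pool left out, -0.54 with DESeq2 and -0.71 without the pools highest in smooth muscle. Genes of the other lists called were 3 as reported, 9 with DESeq2, 7 with the smooth muscle covariate, 0 with the GC offset, 0 to 3 with a pool left out and 1 without the pools highest in smooth muscle. Those called with a pool left out were others than the 3 reported, Blvrb, Fbxl5 and Flvcr2 without wt pool 2 and Slc46a1 without wt pool 1, and the 1 without the pools highest in smooth muscle was Flvcr2. The causes were not tested.

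With a pool left out, the difference in the ratio of Tfrc to Fth1 ran from -0.096 to 0.52 and that of Cybrd1 to Slc11a2 from -0.28 to 0.055. It was 0.0097 to 0.32 for Slc40a1 to Slc11a2, 0.060 to 0.56 for Slc40a1 to Fth1, -0.24 to -0.030 for Fth1 to Ftl1 and -0.33 to -0.056 for Aco1 to Ireb2. Log2 differences of summed markers also turned sign, from -0.045 to 0.031 for enterocytes, -0.27 to 0.13 for macrophages, -0.079 to 2.40 for smooth muscle and -0.14 to 0.89 for fibroblast and endothelium. Cybrd1 and Slc40a1 had the fewest counts of the iron genes, 63 to 116 and 196 to 293. Intervals rest on the spread between pools, and RNA of other cell types in the mucosa was not separated.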
